A study of Caenorhabditis elegans with 2 samples.

Results

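These are 384 of the 3000 nuclear peaks of highest signal in the list that the authors made from both replicates of a chromatin immunoprecipitation of ZNF-207, followed by sequencing (ChIP-seq), and that list holds 29980 nuclear peaks in all. The members were selected on the pooled signal and on location. Each lies on an autosome, has its summit inside a protein-coding gene but in no coding exon or UTR, stands outside the window from 500 bp upstream to 200 bp downstream of every protein-coding gene start, and is over 200 bp from any tRNA, snoRNA or snRNA gene. They make up 12.8% of the 3000 strongest (95% Wilson interval 11.7 to 14%). The same location rule was met by 68 peaks on the X chromosome among the 3000 and by 7112 weaker autosomal peaks of the pooled list. It is met by 26.5 megabases of autosomal sequence, called qualifying bases here.

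The animals were whole Caenorhabditis elegans hermaphrodites of strain xtl1186, collected as young adults 50 hours after synchronization of starved L1 larvae obtained by bleaching. Both samples come from 1 transgenic line that expresses ZNF-207, the product of B0035.1, with a GFP-FLAG tag at its C terminus, and sonicated chromatin was immunoprecipitated through GFP. There are 2 biological replicates of this 1 group. Although a control experiment is named among the labels, none was analysed here, and no peak is set against untagged animals or input.

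ZNF-207 is a zinc finger protein whose human counterpart binds microtubules and kinetochore proteins. Introns of worm genes are mostly short, and the long ones can hold enhancers, starts of shorter transcripts and whole noncoding RNA genes. RNA polymerase III genes such as tRNA genes carry their promoter inside the transcribed sequence, and the B box is 1 element of it.

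Sequence around the summits is shown for words that recur in these peaks. Each line gives 30 bases of the WBcel235 genome from RefSeq, read 5′ to 3′ on the strand that carries the word for members with that word within 50 bp of the summit. In the first set the capitals mark GACGCAG, a word put together from overlapping 6-letter words after their values were seen.
epg-9: gactacggaggaGACGCAGacaggcaaaga
Y111B2A.12: aaatgacaccgaGACGCAGacatcgagtga
pqn-41 at 1925391: gagagagactgaGACGCAGagaacacgaca
daf-5: aaagacgtctaGACGCAGttgatgggctgt
pqn-41 at 1926612: gacggttcgagaGACGCAGagagcacgatg
W06H8.6: ctcctaggggaGACGCAGgcaaaggccacc
The first 4 of these sequences lie at IV:2602166-2602195 on the minus strand, III:12612654-12612683 on the minus strand, III:1925421-1925450 on the minus strand and II:14040492-14040521 on the plus strand. The last 2 are at III:1926578-1926607 on the minus strand and V:6224626-6224655 on the plus strand.

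In the next set the capitals mark the GA repeat GAGAGA, the 6-letter word with the largest excess at the summits.
mdt-26: gtgaagccgcccGAGAGAgccgagaaggca
daf-5: gagagtgagagaGAGAGAtagaagaggcga
gei-4: gacacccggcacGAGAGAgcgcgcccgtcg
pho-11: caaggtattccaGAGAGAaaccagaaaatt
These are II:5661839-5661868 on the plus strand, II:14040523-14040552 on the minus strand, III:349951-349980 on the plus strand and II:9934108-9934137 on the plus strand. In daf-5 both words stand near 1 summit, as they also do at the epg-9 summit and the pqn-41 summit at 1926612 of the first set.

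The final set shows members with a B box, searched as GTTCGANNC and given in capitals.
Y57G11C.22: tagtgtcctggGTTCGAACCcgtcccctgg
sms-3: agaggtcagtgGTTCGACCCatggcgctct
C44C11.6: aaggccactgGTTCGAGTCcttgaactgaa
Y69A2AR.31: gaaggtcgatgGTTCGAATCcttcagtgcg
Their coordinates are IV:14838322-14838351 on the minus strand, III:1600823-1600852 on the minus strand, II:12345108-12345137 on the plus strand and IV:2659015-2659044 on the minus strand. The last of these lies in an annotated tRNA pseudogene of 73 bp inside Y69A2AR.31.

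The members' signal, the value used to choose them, had a median of 61.3 with a range of 49.7 to 229, against a median of 67.1 and a range of 49.7 to 583 for the other 2616 of the 3000. The signal is the authors' own value per peak and has no error of its own. The limit fell within a dense range of values. The last members were in F25B5.3 with a signal of 49.72, pptr-2 with 49.70 and mca-3 with 49.70, and the first intronic peaks left out were in F45H10.2 with 49.68, nhr-46 with 49.66 and eif-3.I with 49.66. Most peaks were called at a fixed width, with a median and both quartiles of 460 bp.

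The 2 strongest members stood at ranks 41 and 42 of the pooled list. The first, with a signal of 229, had its summit at position 2602169 of chromosome IV in intron 2 of epg-9, which encodes an autophagy protein. It held ranks 40 and 57 in replicates 1 and 2. The second, with a signal of 228, was at 5661823 of chromosome II in intron 2 of mdt-26, which encodes a Mediator subunit, and ranked 34 and 43 in replicates 1 and 2. Judged by the worse of both replicate ranks, these 2 members were the best placed. The mdt-26 intron is 386 bp long, so that the peak of 531 bp runs past it, whereas the epg-9 peak of 234 bp lies wholly in an intron of 1824 bp.

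The next 2 by signal lay over noncoding genes on chromosome I. A member with a signal of 206 in intron 5 of ints-8, an Integrator subunit gene, had its summit at 13463988, inside rpr-1, the gene of the RNase P RNA, and ranked 72 and 55 in the replicates. A member with a signal of 202 in intron 6 of ppfr-1, which encodes a regulatory subunit of protein phosphatase 4, had its summit at 9383154, inside F16A11.7 and the antisense gene anr-20, and ranked 67 and 79. Further members among the 12 strongest were in Y111B2A.12 with a signal of 189, pqn-41 with 172 and 157, a second intron of ppfr-1 with 171, let-526 with 169, M01H9.5 with 167, T28F4.1 with 164 and daf-5 with 161. The gene pqn-41 acts in the death of the linker cell, let-526 encodes a SWI/SNF chromatin remodelling subunit, and daf-5 encodes a Sno/Ski family partner of TGF-β signalling in dauer formation. These 12 members ranked between 34 and 162 in replicate 1 and between 43 and 225 in replicate 2. All 12 were in the authors' thresholded list, which among members followed the pooled signal used to choose them.

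The members lay in long introns. The median intron around a member was 1784 bp (quartiles 622 and 4996 bp, n = 382), against 896 bp for the weaker intronic peaks (n = 7090), 973 bp over the qualifying bases and 70 bp over all 90275 autosomal introns of coding transcripts. Length was counted per base because a long intron offers more room. Introns of 5000 bp or longer held 96 members, which is 25%, against 14.1% of the weaker peaks and 12.7% of the bases. Introns under 200 bp held 28 members, or 7.29%, against 13.2% of the weaker peaks and 11.7% of the bases. Members per megabase came to 9 in introns under 200 bp, 10.6 from 200 to under 1000 bp, 15.6 from 1000 to under 5000 bp and 28.6 at 5000 bp or longer. The weaker peaks had 301, 279, 238 and 298 per megabase in the same classes, with no such ordering.

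The longest introns with a member were those of Y48C3A.5 with 19927 bp, T28B11.1 with 17091 bp and fkh-7, a forkhead transcription factor gene, with 16465 bp. The shortest were those of F13H8.5 with 41 bp, cdc-48.3 with 43 bp and pho-11 with 45 bp. In such short introns the peak necessarily covers exons as well, and the summit alone made them intronic. Over all members 238 peaks, or 62% (57 to 66.7%), lay wholly inside the intron, against 43.7% (42.6 to 44.9%) of the weaker peaks. The summit was a median of 390 bp from the nearer splice site for members and 182 bp for weaker peaks.

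First introns were represented above their share of sequence. They held 114 members, or 29.7% (25.3 to 34.4%), against 23% (22 to 24%) of the weaker peaks and 22.5% of the qualifying bases. Inner introns held 208 members, or 54.2% (49.2 to 59.1%), against 62.2% of the weaker peaks and 63% of the bases, and last introns held 60, or 15.6% (12.3 to 19.6%), against 14.5% and 14%. Intron order was read from the transcript with the longest coding sequence among those with an intron at the summit. Some members are therefore in the first intron of a shorter transcript only. In daf-5, for example, introns of 14446 and 963 bp both counted as first, in different transcripts. When the smallest order over all transcripts was used, 47.4% of members were in a first intron, against 31.1% of the bases.

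Order and length were linked. First introns of 1000 bp or longer held 22 members per megabase and inner introns of that length held 19.4, whereas shorter first introns held 14.3 and shorter inner introns 6.23. Last introns went the other way, with 7.52 per megabase at 1000 bp or longer, from 10 members, and 21.1 below 1000 bp, from 50 members. The weaker peaks showed the same direction in last introns, with 197 and 324 per megabase. The last intron of lin-12, a Notch receptor gene, is an example of 387 bp with a member of signal 52.2, which ranked 3352 in replicate 1 and 434 in replicate 2.

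**Figure D1:**
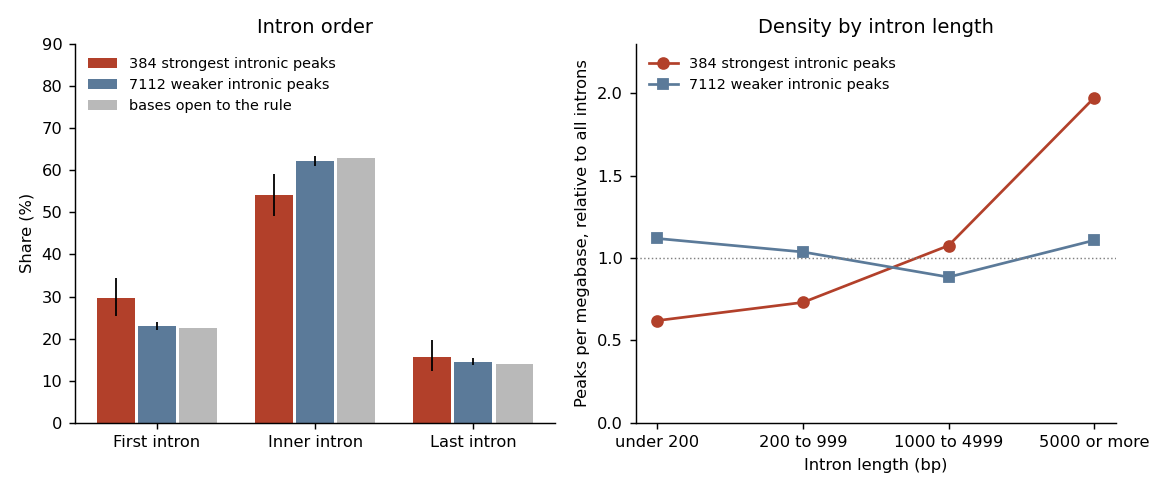
The left panel gives the share of members, of weaker intronic peaks and of qualifying bases in first, inner and last introns, with 95% Wilson intervals over peaks, and members exceed both backgrounds in first introns. The right panel gives peaks per megabase by intron length, divided by the value over all introns, and rises with length for members (9 to 28.6 per megabase before division) while the weaker peaks stay near 1.

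Members were also nearer the centres of the chromosomes. The central 50% of each autosome's length held 224 members, or 58.3% (53.3 to 63.2%), against 51.2% (50.0 to 52.3%) of the weaker peaks and 43.1% of the qualifying bases. By chromosome, members per megabase of qualifying sequence were 12.7 on I, 18.5 on II, 19 on III, 13.3 on IV and 10.3 on V, and the X peaks that meet the location rule gave 13.1. The weaker peaks ranged only from 248 on V to 282 on III. For 2 members there was no intron of a coding transcript around the summit. One in F28F8.7 also lies in an annotated pseudogene, and one in tos-1 lies in an exon of a noncoding isoform, as does 1 of the fkh-7 members.

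The rule left out only the outermost start of each gene, so starts of shorter transcripts could lie near members. Such an internal start of a coding transcript, from 500 bp downstream to 200 bp upstream of the summit along the gene, was found for 68 members, or 17.7% (14.2 to 21.8%), against 10.1% (9.40 to 10.8%) of the weaker peaks and 6.61% of the qualifying bases. The summit was upstream of the start in 60 of the 68, where the window is also wider, and within 100 bp of it in 13. The median gap was 192 bp. In 65 of the 68 the start belonged to the host gene itself. A narrower window of 200 bp upstream to 100 bp downstream held 7.81% of members and 2.52% of the bases.

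The strongest of them was in srh-2, a gene of the serpentine receptor class h, at rank 486 of the pooled list with its summit 88 bp upstream of the start of transcript C05E4.14c.1, and at ranks 408 and 947 in replicates 1 and 2. A member in scc-2, which encodes the cohesin loader, had a signal of 96.0 and was 157 bp upstream of an internal start, and one in zip-2, a bZIP transcription factor gene of the response to infection, had a signal of 91.8 and was 193 bp upstream. The member in unc-108, the Rab2 gene, had a signal of 91.1 and was 484 bp upstream. The member in sms-3, a sphingomyelin synthase gene, differed in that its summit was 189 bp downstream of the internal start, with a signal of 98.8 and the B box shown above. Of these 5, scc-2 ranked 464 and 2480 and unc-108 ranked 514 and 4740, so that the replicates placed these 2 far apart. In zip-2 and unc-108 the annotated internal start, at 834088 and 3824947, is the first base after the host intron. Their gaps are therefore also distances to a splice site. The same held for other members, among them those in ubq-1 and enol-1. Whether transcription starts at these annotated starts was not tested.

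First introns held 33 of the 68 members near an internal start, which is 48.5%. The share near an internal start was 20.4% in introns under 1000 bp and 16.3% in longer ones, against 6.01% and 7.15% of the qualifying bases and 8.91% and 11.3% of the weaker peaks. Over all members the share was thus above both backgrounds in either length class. Among the members of the thresholded list it was 9.80%, or 5 of 51. That is close to the 10.1% of the weaker peaks and above the 6.61% of the qualifying bases.

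Other noncoding genes were within 200 bp of 64 members, or 16.7% (13.3 to 20.7%), against 7.44% (6.85 to 8.07%) of the weaker peaks and 7.34% of the qualifying bases. Most of these had a gene of the class ncRNA, which is annotated without a named function in most cases: 52 members, or 13.5% (10.5 to 17.3%), against 3.61% (3.20 to 4.07%) of the weaker peaks and 2.81% of the bases. piRNA genes gave the opposite order, with 4 members, or 1.04% (0.406 to 2.65%), against 3.05% of the weaker peaks and 3.58% of the bases. miRNA genes were near 4 members, or 1.04%, against 0.127% of the weaker peaks. Pseudogenes were near 6 members, or 1.56%, against 0.450% of the weaker peaks and 0.748% of the bases, and antisense RNA genes near 2, or 0.521%, against 0.267% and 0.177%. lincRNA genes were near 0 of 384, with an upper Wilson bound of 0.990%, against 0.0844% of the weaker peaks and 0.0432% of the bases. No qualifying base was near an rRNA gene, so none could be near a member.

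The ncRNA genes near members numbered 63, with a median length of 146 bp against 139 bp for all 5244 autosomal ones. Of these 63 genes, 59 lie wholly within the host's intron, 21 are on the host's strand and 42 on the other. The summit was inside a noncoding gene for 29 members, or 7.55%, against 1.87% of the bases. Besides rpr-1 and F16A11.7, T28F4.7 of 238 bp held the summit of a member with a signal of 164 in the first intron of T28F4.1 on chromosome I, at ranks 114 and 111. F16A11.13, of 117 bp, lay 154 bp from the ppfr-1 member of signal 171, and its sequence held the summit of a weaker ppfr-1 member of signal 77.5. W06H8.16, of 56 bp, lay 137 bp from the W06H8.6 member of signal 121, whose ranks were 193 and 1136.

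The members were thus away from tRNA, snoRNA and snRNA genes as labelled, but not from every short RNA gene. The gene rpr-1 is 253 bp long, and srpr-1.2, of 299 bp at III:4369468-4369766, held the summit of a member with a signal of 83.8 in ckb-2. A tRNA pseudogene of the RefSeq annotation was within 200 bp of 3 members, or 0.781% (0.266 to 2.27%), against 0.211% of the weaker peaks and 0.145% of the bases. Of these 3, the unc-104 member, in the gene of a kinesin motor, had a signal of 95.7 and lay 6 bp from its pseudogene. Both others were at 1 pseudogene in Y69A2AR.31. The member of signal 51.4 had its summit inside that pseudogene, and the member of signal 65.6 lay 163 bp from it. The 4 members near miRNA genes were in B0361.11 with a signal of 76.7, 20 bp from mir-2214, in Y67D8A.2 with 63.7, 177 bp from cel-mir-58a, in flcn-1 with 57.9, inside cel-mir-8192, and in nurf-1 with 51.1, just under 200 bp from cel-mir-5595. They ranked between 1343 and 5058 in replicate 1 and between 1012 and 5589 in replicate 2.

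The 384 members fell in 295 host genes, of 15610 autosomal genes with a qualifying base. A single member was found in 240 of them, and 55 genes held 2 or more, with 144 members together. Joining summits within 500 bp left 364 loci, so most of the repeats were separate places. Another of the 3000 strongest summits stood in the start window of 25 hosts, or 8.47% (5.81 to 12.2%), against 5.61% of all genes with a qualifying base.

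Y111B2A.12 held the most, with 6 members in its intron 4 of 7076 bp on chromosome III. Their signals were 189, 107, 55.7, 54.4, 53.3 and 51.5, so 1 summit at 12612657 stood well above the others. In pqn-41, 5 members lay in the 10372 bp of intron 14, with signals of 172, 157, 121, 115 and 78.6. Those of 157 and 78.6 had the same match in each replicate, at ranks 91 and 137, so neither replicate separates them. That of 121 ranked 186 and 1677. The 5 members of ppfr-1, at 202, 171, 81.8, 77.5 and 53.1, lay in introns 6 and 7, and 4 of them were within 200 bp of a noncoding gene. In zfp-1, the AF10 homologue with PHD fingers, the 5 signals ran from 51 to 130 over 2 introns. The 5 members of ncl-1, a gene that limits nucleolar size, were spread over 4 introns and were all weaker, from 51.1 to 75.6.

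Hosts with 4 members were let-526, daf-5, Y43F8B.2, mnk-1 and ccch-1. The daf-5 members ran from 54.5 to 161, with the strongest in the first intron of 14446 bp, and those of let-526 from 54.5 to 169. Hosts with 3 included skn-1 and hlh-30, the worm counterparts of Nrf and TFEB, with signals from 71.7 to 75.9 and from 49.9 to 71. Close summits can be served by 1 peak of a replicate list. In replicate 1, 14 members shared 7 matched peaks, and in replicate 2, 10 members shared 5. The Y111B2A.12 summits at 12612657 and 12612856, for example, both matched the peak of rank 75 in replicate 1, but matched ranks 97 and 9945 in replicate 2.

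**Figure D2:**
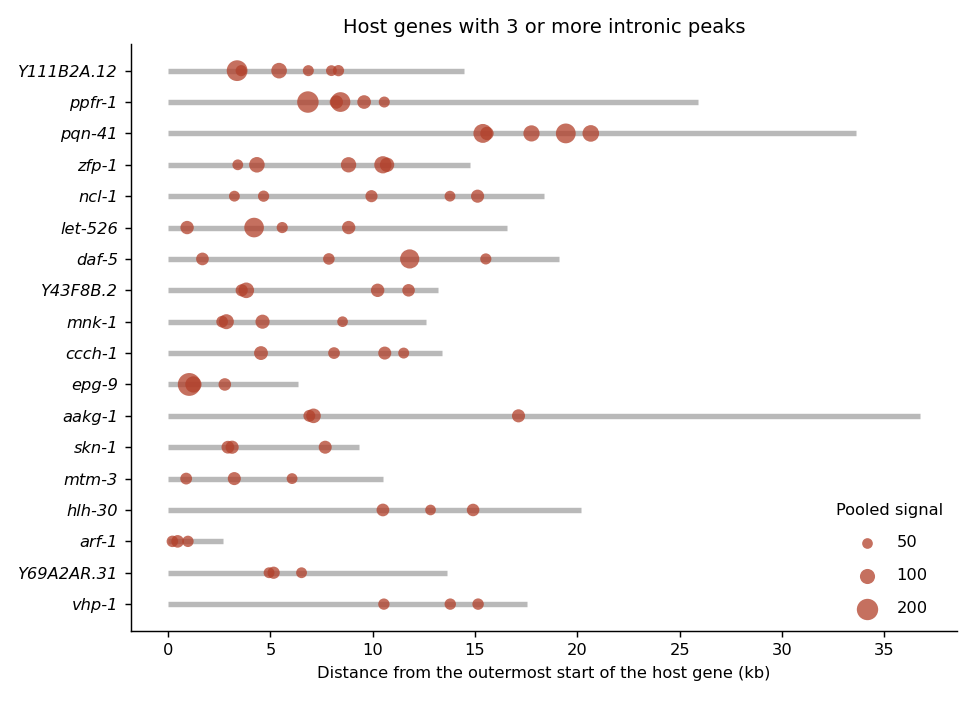
Each grey bar is 1 of the 18 host genes with 3 or more members, drawn from its outermost start on the left to its end in kilobases, and each red point is a member with an area proportional to its pooled signal. The 6 members of Y111B2A.12 lie between 3.37 and 8.32 kb from the start, and those of pqn-41 cluster between 15.4 and 20.7 kb.

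Host genes were also counted by function, over lists of known genes made with earlier results of these data in view. The transcription factor list had the largest share of hosts, 11 of the 55 listed genes with a qualifying base, or 20%. The cell signalling list was close, at 17.9%. Listed transcription factor genes held 19 members, or 53.1 per megabase. Over all genes the values were 295 of 15610, or 1.89%, and 14.6 members per megabase. The listed transcription factor hosts were led by zip-2 with a signal of 91.8, the FOXO gene daf-16 with 87.3 and 72.1, fkh-7 with 79.0 and 64.9, and skn-1 with 75.9. Cell signalling genes gave 12 hosts of 67 and 33.8 members per megabase, among them the Notch pathway factor gene lag-1 with 76.8, the ERK gene mpk-1 with 74.1, the cGMP-dependent kinase gene egl-4 with 68.9 and the phosphodiesterase gene pde-4 with 68. Ion channel and synapse genes gave 5 hosts of 51 and 16.9 per megabase, with unc-43, the gene of the kinase CaMKII, at 97.1 and unc-104 at 95.7.

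Other lists held few members or none. Axon guidance, adhesion and extracellular matrix genes gave 2 hosts of 49, unc-73 with 72.9 and ptp-3 with 58.9, and 6.60 members per megabase. Muscle and cytoskeleton genes gave 0 of 51 in 304 kilobases of qualifying sequence. Germline, meiosis and chromatin genes gave 0 of 59 in 89.5 kilobases, and cytosolic ribosomal protein genes 0 of 60 in 7.70 kilobases, so the last 2 lists offered little sequence in which a member could lie. These counts describe the lists, which are partial, and no test was made of any. A count of 0 does not mean that no gene of that kind was a host. The chromatin remodelling gene let-526, the cohesin loader gene scc-2 and the tubulin gene tba-7, with a signal of 110, were hosts but on none of the lists. The kinesin gene unc-104 was counted with the synapse genes. Several transcription factor genes were likewise hosts on no list, among them nhr-19, zip-7, nhr-34, nhr-49, nhr-88, pqm-1 and crh-2.

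The members' summits were rich in G and C over a broad stretch. The median G+C content within 50 bp was 42.6% (quartiles 34.7 and 51.5%), against 32.7% for the weaker intronic peaks, 32.7% over the qualifying bases and 43.6% for the other autosomal peaks among the strongest. At 200 bp upstream of the summit on the reference strand the mean was 39.53% in members, 36.43% in weaker peaks and 37.02% in the other strongest peaks. The rise was thus wider around the intronic summits than around the others. The weaker peaks instead dipped at the summit, to 32.26% at the centre.

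The GA repeat GAGAGA, searched on both strands and within 50 bp of the summit, was present at 73 members, or 19% (15.4 to 23.2%). It was present in 6.31% (5.77 to 6.90%) of the weaker peaks, 4.21% of windows centred on qualifying bases, 14.3% (12.8 to 15.9%) of the other autosomal strongest peaks and 8.98% of windows centred 300 bp to each side of the members. The next words by excess over the flanks were CGCAGA at 12% against 2.34%, GACGCA at 11.5% against 2.21%, AGAGAG, which overlaps the GA repeat, at 16.1% against 7.29%, and ACGCAG at 9.90% against 1.82%. The 3 words with a CGCA core overlap one another, and GACGCA and the word ACGCAG join into GACGCAG. This longer word was found at 28 members, or 7.29% (5.09 to 10.3%), against 1.41% (1.16 to 1.71%) of the weaker peaks, 4.01% (3.24 to 4.94%) of the other autosomal strongest peaks and 0.828% of qualifying windows.

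Counted by the nearest occurrence, both words were densest near the summit, where they had been selected. The centre of the nearest GACGCAG was within 25 bp of the summit for 16 members and from 26 to 50 bp for 13, while the next 3 steps of 50 bp held 11, 12 and 13, and the stretch beyond 200 bp and up to 300 bp held 4. That of the nearest GAGAGA was within 25 bp for 48 members. At least 1 of the 2 words was within 50 bp of 89 members, or 23.2%, and of 7.11% of the weaker peaks, and 12 members had both. The words were selected for their excess at the summit, so their shares at members and their fall with distance are a description. Counting only the nearest occurrence also thins the outer steps. The other autosomal strongest peaks had a fall too. Scaled to 50 bp, their GAGAGA values were 17.6% within 25 bp and 9.22% from 51 to 100 bp, against 25% and 10.7% in members. For GACGCAG they were 5.02% and 3.57%, against 8.33% and 2.86% in members. Both words were more frequent in introns of 1000 bp or longer, where 26.1% of members had GAGAGA against 6.57% in shorter introns. The weaker peaks ran in the same direction, with 9.58% against 3.43%.

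The B box was found at 6 members, or 1.56% (0.718 to 3.37%), against 0.703% (0.534 to 0.926%) of the weaker peaks, 0.619% of qualifying windows and 4.15% (3.37 to 5.10%) of the other autosomal strongest peaks. The lower bound for the members, 0.718%, is just above the value of the weaker peaks and within their interval. The strongest was the Y57G11C.22 member, with a signal of 129 and ranks of 269 and 336. The sms-3 member followed at ranks 670 and 782, whereas the C44C11.6 member, with a signal of 57.5, ranked 1294 in replicate 1 and only 21629 in replicate 2. Runs of TTTTTT were found at 29.4% of members, against 49.5% of the weaker peaks, 53.5% of qualifying windows and 27.2% of the other autosomal strongest peaks. Other words looked for included CACGTG at 3.91% of members, against 1.93% of the weaker peaks and 3.52% of the other autosomal strongest, and GCGCGC at 4.17%, against 1.29% and 4.73%.

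**Figure D3:**
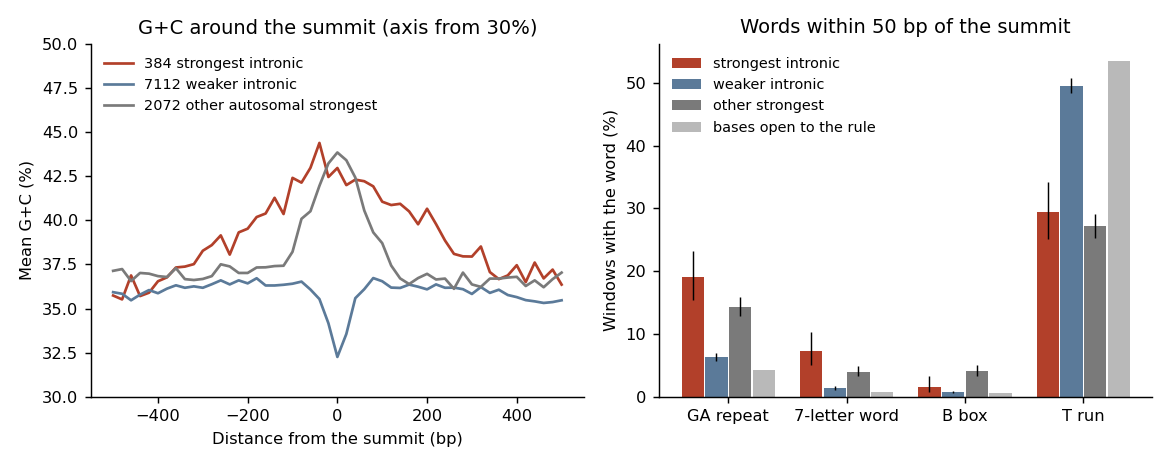
The left panel gives the mean G+C content in percent by distance from the summit in bp, with an axis that starts at 30%. Members lie above the weaker peaks at every step from 400 bp left to 500 bp right of the summit. The right panel gives the percent of summits with GAGAGA (GA repeat), GACGCAG (7-letter word), GTTCGANNC (B box) and TTTTTT (T run) within 50 bp, with 95% Wilson intervals over peaks, and members at 19% exceed weaker peaks at 6.31% for the GA repeat.

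The replicates were compared by rank, since signals are on a scale of their own in each list. A summit within 200 bp among the 3000 strongest of replicate 1 was found for 273 members, or 71.1% (66.4 to 75.4%), against 2031 of the other 2616 strongest, or 77.6% (76 to 79.2%), and 76.8% of all 3000. For replicate 2 it was 222 members, or 57.8% (52.8 to 62.7%), against 63.9% of the others (62.1 to 65.7%) and 63.1% of all 3000. Both replicates placed 138 members among their 3000 strongest, which is 35.9% (31.3 to 40.9%), against 48.5% (46.6 to 50.5%) of the others and 46.9% of all 3000. Replicate 1 alone did so for 135, replicate 2 alone for 84 and neither for 27.

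The members also had the lower median pooled signal, given above, and its part in these shares was not tested. Their median rank was 1844 in replicate 1, where 380 members had a match anywhere in the list, and 2080 in replicate 2, where 347 had one. For the other strongest peaks the medians were 1456 and 1634. The Spearman correlation between the ranks was 0.105 over 343 members with a match in both, and 0.373 over 2452 of the others. The pooled list was made from both replicates, and members and others were cut at the same pooled signal. Such a cut can lower a correlation, and its part in either value was not tested. Peaks of 1 replicate also share its library, so the values are descriptions with no p.

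The thresholded list, the authors' optimal set, held 51 members, or 13.3% (10.2 to 17%), against 24.4% of all 3000. It held every member down to pooled rank 702 and none from rank 761 on. Among members it thus followed the signal used to choose them, and it is no separate support. The ratio between both replicate ranks was largest for 4 members. The T21H3.5 member of signal 57.1 was matched to rank 299 in replicate 1 and to 22968 in replicate 2, but the peak of rank 299 also served a stronger member in the same gene, with a signal of 140 and rank 75 in replicate 2. The Y111B2A.12 summit at 12612856, given above, likewise shared its match in replicate 1 with a stronger neighbour. The other two shared no match: an nhr-19 member, with 67.4, stood at 802 and 20403, and the C32F10.8 member, with 55.4, had the reverse, at 21332 and 1065. Missing matches can also follow from the limit of 200 bp. The zfp-1 member of signal 130, in the thresholded list, ranked 237 in replicate 1 and had no summit that near in replicate 2, where the neighbouring zfp-1 member of signal 90.3 was matched to rank 334.

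**Figure D4:**
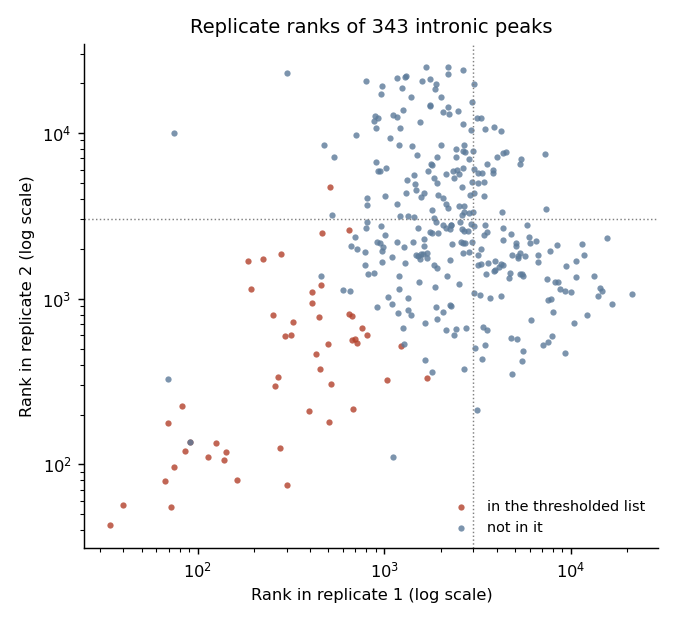
Each of 343 members with a match in both replicate lists is placed by its rank in replicate 1 and in replicate 2, on log axes, with dotted lines at rank 3000 and members of the thresholded list in red. The points at the lower left, led by mdt-26 at 34 and 43, are strong in both, and the cloud toward the upper left and lower right holds members strong in 1 replicate.

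Members that both replicates placed among their 3000 strongest differed from the rest. Their median intron was 3078 bp, against 1525 bp for those of replicate 1 alone, 1238 bp for those of replicate 2 alone and 1013 bp for those of neither. Another noncoding gene was near 31 of these 138, or 22.5%, against 14.1% for replicate 1 alone, 13.1% for replicate 2 alone and 3 of 27 for neither. GAGAGA was at 28.3% of them, against 19.3% for replicate 1 alone, 7.14% for replicate 2 alone and 7.41% for neither. Internal starts had no such order, at 13.8% of members supported by both, 20.7% for replicate 1 alone, 22.6% for replicate 2 alone and 7.41% for neither, which is 2 of 27. First introns held 30.4% for both, 30.4% for replicate 1 alone, 31% for replicate 2 alone and 18.5% for neither. The median pooled signal of the 138 was 77.8, against 57.4, 55.8 and 51.2, so signal moves with this split, and its part in the other values was not tested.

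**Figure D5:**
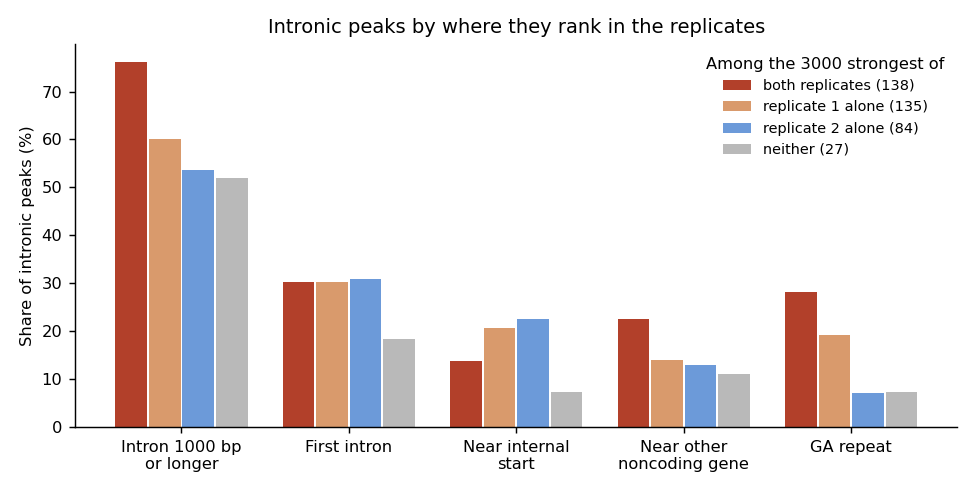
Bars give the percent of members with each feature, for the 138 members among the 3000 strongest of both replicates, the 135 of replicate 1 alone, the 84 of replicate 2 alone and the 27 of neither. Long introns, at 76.1%, and the GA repeat, at 28.3%, are most frequent in the first class, and first introns are at 30.4 to 31% in the first 3 classes and 18.5% in the last.

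The 68 X peaks that meet the location rule resembled the members in several of these measures. Their median intron was 2066 bp, 35.3% (25 to 47.2%) lay in a first intron, 14.7% (8.19 to 25%) were near another noncoding gene and the median G+C content was 44.1%. GAGAGA was at 13.2% (7.12 to 23.3%) of them and an internal start near 8.82% (4.11 to 17.9%). With 68 peaks these intervals are wide. Each includes the share found for the autosomal members, although that of the internal starts barely does.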

How the data were processed

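ChIP-seq peak lists in narrowPeak form were used in the ce11 build: 1 per replicate, 1 of both replicates together and a thresholded one. As deposited, the first 3 hold peaks plus background meant to feed the irreproducible discovery rate procedure, and the last is its optimal thresholded set. The aligner and peak caller were not stated in the sources used here. The authors' peak signal in column 7 has its own scale in every list and was ranked within it. The deposited −log10 q-value in column 9 only broke ties. The deposited offset in column 10 gave the summit. The lists hold no read counts, so depth is unknown, and the 95% Wilson intervals cover only the counting of peaks.

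The pooled list had 30000 peaks, replicate 1 had 30000, replicate 2 had 25036 and the thresholded list 750, mitochondrial peaks included. Those were left out, as were the ce10 lists. Summits were located with the Ensembl release 115 annotation of WBcel235, 1-based. Stop codons counted as coding. Of several transcripts with an intron at the summit, the one of longest coding length gave the intron. Python 3.11.15, numpy 2.4.6 and scipy 1.17.1 were used, and the classing was tested on a made-up annotation.

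The members, gene lists and measures were chosen with earlier results of these data known. No test was made and no p-value is given, since 1 group of 2 replicates has no comparison of conditions. Named were the 12 strongest members, hosts with 3 or more members, members with the best and the most unequal replicate ranks, the strongest near noncoding genes, internal starts and B boxes, list hosts, the longest and shortest introns, peaks at the limit, and the 5 words of largest excess. Further noncoding neighbours, GACGCAG and the members without an intron were singled out after their values were seen. Alternatives changed the number of peaks, thresholds, windows, matching distances, transcripts and replicates.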

Additional observations from a re-analysis of the deposited data

How the results depend on the processing

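Over 8 measures and their alternatives, 62 of 90 values lay within the interval of the reported one (95% Wilson for shares, 1370 to 2517 bp for the median intron) or, for counts, within 1.5 times it, and 28 did not. The number of members followed the number of peaks taken, with 148 from the 1500 strongest, 789 from the 5000 strongest and 51 in the thresholded list. For these 3 choices the median intron was 2641, 1136 and 2888 bp, the share matched in both replicates 75, 18.4 and 96.1%, and the hosts with several members 17, 108 and 5. Other noncoding genes were near 22.3 and 12.2% with 1500 and 5000 peaks. In the thresholded list internal starts were near 9.80% and a B box near 3.92%. The smallest order over transcripts gave 47.4% in first introns. Summits within 100 and 50 bp matched 28.4 and 17.7% in both replicates, and overlapping intervals 42.2%. A summit inside a noncoding gene was counted for 7.55%, and one within 500 bp for 22.1%, against 11.6% of bases. The narrower internal start window gave 7.81% and a B box within 25 bp 0.521%, while within 100 bp it was 3.12%, inside the wide interval of 1.56%. Leaving out introns under 500 bp, chosen after seeing the data like the joining of summits within 500 bp, gave a median of 3010 bp.

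With 1 replicate left out, the strongest peaks of the other gave 405 to 453 members, first introns 28.5 to 30.9%, a median intron of 1229 to 1696 bp, 31.1 to 36% matched in both, noncoding neighbours at 11.9 to 17.5%, internal starts at 15.5 to 17.3%, 58 to 61 hosts with several members and a B box at 0.988 to 1.1%. The lower median and noncoding share are those of replicate 2. Each of these peaks is in its own replicate's list, so matched in both here means only a match in the replicate left out. No paired analysis was possible because both replicates belong to 1 group. The cause of these shifts was not tested.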
